A study of Mus musculus with 8 samples.

Results

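Treg cells, the Foxp3+ T cells that restrain immune responses, carry ion channels of several families beside the CRAC channel. The transcripts of 7 of these channels are described here: the potassium channel genes Kcna3 and Kcnn4, the transient receptor potential (TRP) channel genes Trpm4, Trpm7 and Trpv2, and the purinergic receptor genes P2rx4 and P2rx7. They were chosen by gene symbol. All 7 were among the 52459 symbols listed, and all 7 were among the 15419 genes tested, which had a mean of at least 10 normalized counts over the libraries. RNA of sorted CD4+CD25hi cells from spleen and lymph nodes of pooled female C57BL/6 mice was sequenced in 8 libraries, 2 in each of 4 groups. The mice were heterozygous Stim1fl/fl Stim2fl/fl Foxp3-YFPcre animals, in which X inactivation leaves some Treg cells with and others without the Cre recombinase, whose expression is driven by the Foxp3 promoter. YFPcre- cells were labelled WT, although they carried the same floxed alleles, and YFPcre+ cells were labelled Stim1/2-deficient. Cells of each genotype were unstimulated or kept for 16 h on plate-bound anti-CD3/CD28 at 1 µg/ml. The ages of the mice are not given in the sources used here. The WT unstimulated pair is numbered 3 and 4 and every other pair 1 and 2. As cells of several mice were pooled for a library, p-values measure the spread between pools.

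The channels differ in what they let through. STIM1 and STIM2 sense the calcium content of the endoplasmic reticulum and open CRAC channels in the plasma membrane, and calcium that enters through these depolarizes the cell. Kv1.3, encoded by Kcna3, opens with voltage and KCa3.1, encoded by Kcnn4, opens with calcium bound to calmodulin, and the potassium that leaves through both keeps the membrane negative and so sustains the drive for calcium. TRPM4 is opened by intracellular calcium but passes monovalent cations and depolarizes the membrane. TRPM7 conducts magnesium, zinc and calcium and carries a protein kinase domain, and TRPV2 is a calcium-permeable cation channel. P2X4 and P2X7 are cation channels gated by extracellular ATP, and P2X7, which is also reached by ADP-ribosylation from extracellular NAD, can drive Treg cells into death.

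Libraries held between 11851853 and 16306540 reads on genes, and 1 read was worth 0.759 to 1.48 normalized counts. The gene-level counts of Stim1 and Stim2 did not differ at an adjusted p under 0.05 between WT cells and cells labelled Stim1/2-deficient. In unstimulated cells Stim1 had 1139 and 1377 normalized counts in WT libraries and 1538 and 1868 in labelled ones (log2 fold change 0.44, adjusted p = 0.236), and Stim2 had 906 and 908 against 904 and 744 (log2 fold change -0.15, adjusted p = 0.721). After stimulation the log2 fold change was -0.15 for Stim1 and -0.13 for Stim2 (adjusted p = 0.807 and 0.827). A count over the whole gene does not separate the floxed exons, so it does not check the deletion. The paper reports that YFPcre+ Treg cells of heterozygous females lacked store-operated calcium entry, the influx through CRAC channels. It also reports loss of Stim1 and Stim2 expression by RT-PCR in Treg cells of male mice. All directions below are those of the libraries labelled Stim1/2-deficient. The defining Treg transcript Foxp3 was present throughout, with 8159 to 11918 normalized counts in WT libraries and 4258 to 7253 in labelled ones. Macrophage markers differed in the unstimulated groups: the sum of 12 markers was 341 and 347 in WT libraries but 11702 in labelled replicate 1 and 1808 in labelled replicate 2. All 12 were higher there and 9 were called, and 2 of them, C1qa and C1qc, stood at 0 in both WT libraries. In the 4 stimulated libraries the sum lay between 229 and 346, with 3 of the 12 markers at 0 in both libraries of each genotype. The sum of 8 B cell markers was also highest in labelled unstimulated replicate 1, at 14036 against 2420 to 6730 elsewhere, and the sum of 7 Treg markers was lowest in the same group, at 40591 and 48769 against 69853 to 115438. For 6 CD8 T and NK cell markers the sum was highest in labelled stimulated replicate 1, at 1142 against 237 to 913 elsewhere. For 5 neutrophil markers it was 756 in labelled unstimulated replicate 1 and 629 in labelled stimulated replicate 1, against 97.5 to 406 elsewhere. In such bulk samples, fewer cells of a type and less RNA per cell cannot be told apart. Unstimulated libraries shared a sequencing lane and stimulated libraries another, so stimulation, lane and culture cannot be told apart.

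Levels of different genes were compared as normalized counts per kb of exon. The exon lengths came from GENCODE M1, which may not be the annotation used in counting, so the order of genes with near levels is uncertain. On this scale Kcnn4 and Trpm7 were the most abundant of the 7 and Trpm4 the least in each of the 4 groups. In WT unstimulated cells the mean level was 433 per kb for Trpm7 and 431 for Kcnn4, and the ranges of both overlapped. P2rx7 followed at 217, P2rx4 at 100.2 and Kcna3 at 99.95, the last 2 overlapping, then Trpv2 at 88.7 and Trpm4 at 14.8. In labelled unstimulated cells Kcnn4 (627) and Trpm7 (548) overlapped, and so did Kcna3 (93.2) and Trpv2 (61.9). After stimulation of WT cells Kcnn4 stood at 266 and Trpm7 at 216, whereas P2rx7 (129.8), Kcna3 (122.5), Trpv2 (106) and P2rx4 (96.7) each overlapped the next in that order. In stimulated labelled cells the order was Kcnn4 (303.5), Trpm7 (229), P2rx7 (181), P2rx4 (126), Kcna3 (122), Trpv2 (59.1) and Trpm4 (13.0), with P2rx4 and Kcna3 overlapping.

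**Figure D1:**
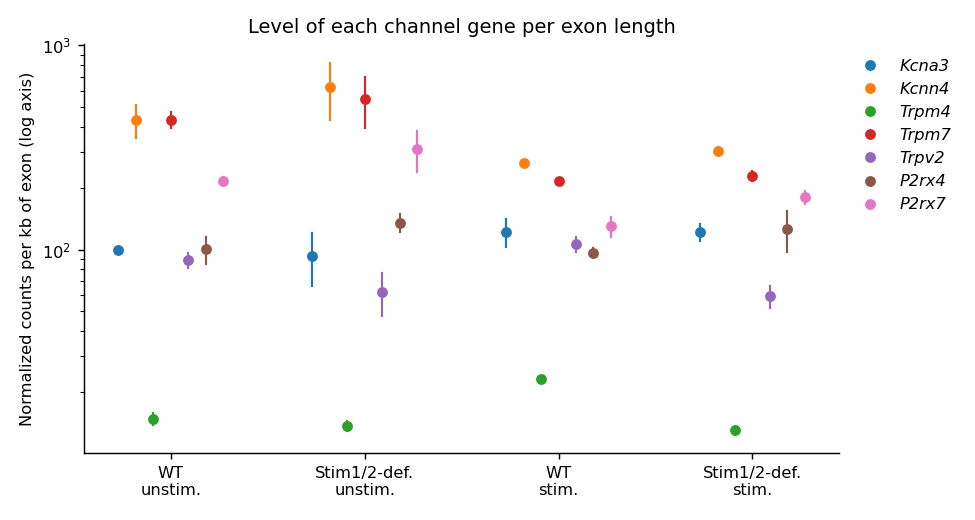
Mean level of each of the 7 channel genes in the 4 groups, in normalized counts per kb of exon on a log axis, with lines from the lower to the higher of the 2 libraries. Kcnn4 and Trpm7 lie at the top of every group and Trpm4 lies lowest, between 13.0 and 23.1 per kb.

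The genes lie on 5 chromosomes. On GRCm38.p6, RefSeq places Kcna3 on chromosome 3 from 107036162 to 107038129, Kcnn4 and Trpm4 on chromosome 7 from 24369826 to 24385212 and from 45303155 to 45334071, Trpm7 on chromosome 2 from 126791558 to 126876261 and Trpv2 on chromosome 11 from 62574486 to 62600305. P2rx7 (122643927 to 122692336) and P2rx4 (122707518 to 122729739) are neighbours on chromosome 5, 15.2 kb apart. RefSeq promoters were matched for 6 of the 7 genes, in 9 windows of 300 bases that run from 250 bases before a transcription start to 50 after it. Kcnn4, Trpm7 and P2rx7 are the 3 genes called lower after stimulation in at least 1 genotype, so the 250 bases before their starts are shown, 5′ to 3′ on the strand of the gene. P2rx7 has 2 starts in this set, of which gene counts do not say which was used. The Kcnn4 window, from 24370013 to 24370262, lies inside the RefSeq span of Kcnn4 given above, so it precedes a start within that span. Bases before the outer end of that span were not searched. Capitals mark matches, on either strand, to GGAAA, the core of NFAT sites, or to TGANTCA, an AP-1 site.
Trpm7, chr2:126876262-126876511 (minus strand, GRCm38.p6): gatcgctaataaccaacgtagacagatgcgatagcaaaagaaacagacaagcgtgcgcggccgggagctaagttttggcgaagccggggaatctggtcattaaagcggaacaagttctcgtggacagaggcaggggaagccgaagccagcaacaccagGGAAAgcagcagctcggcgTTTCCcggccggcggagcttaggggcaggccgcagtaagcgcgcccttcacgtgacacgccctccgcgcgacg
Kcnn4, chr7:24370013-24370262 (plus strand, GRCm38.p6): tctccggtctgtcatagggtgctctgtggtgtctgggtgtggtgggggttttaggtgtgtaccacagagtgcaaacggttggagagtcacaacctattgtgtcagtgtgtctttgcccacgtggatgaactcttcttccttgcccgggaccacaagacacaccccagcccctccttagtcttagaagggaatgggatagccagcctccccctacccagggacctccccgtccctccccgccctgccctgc
P2rx7, upstream start, chr5:122643677-122643926 (plus strand, GRCm38.p6): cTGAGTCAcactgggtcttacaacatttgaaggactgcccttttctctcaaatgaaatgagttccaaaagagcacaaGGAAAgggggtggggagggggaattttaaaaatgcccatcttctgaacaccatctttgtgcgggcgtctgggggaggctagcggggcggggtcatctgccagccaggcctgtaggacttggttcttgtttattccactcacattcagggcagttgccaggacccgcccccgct
P2rx7, downstream start, chr5:122650133-122650382 (plus strand, GRCm38.p6): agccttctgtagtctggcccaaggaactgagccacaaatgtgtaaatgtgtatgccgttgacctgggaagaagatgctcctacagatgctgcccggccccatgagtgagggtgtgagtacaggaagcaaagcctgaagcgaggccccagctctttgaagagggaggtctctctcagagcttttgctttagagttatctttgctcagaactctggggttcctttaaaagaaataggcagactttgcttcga

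The Trpm7 window held 2 matches to GGAAA, 92 and 73 bases before the start. The upstream P2rx7 window held 1 such match and 1 match to TGANTCA, 249 bases before the start, whereas the Kcnn4 window and the downstream P2rx7 window held neither. Of the other windows, those of Kcna3 and P2rx4 and 1 of the 3 Trpv2 windows held 1 match to GGAAA each. No member window held TTCNNNGAA, a STAT site. Over 32851 RefSeq promoter windows of the same length, GGAAA was found in 61.3%, TGANTCA in 7.81% and TTCNNNGAA in 8.30%. The matches describe the letters in these windows and say nothing about binding.

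The first question was whether the cells labelled Stim1/2-deficient express these channels at other levels than WT cells. None of the 7 was called. A gene counted as called if it changed by over 1.5-fold with a p under 0.05 after Benjamini-Hochberg adjustment over all genes. The test was limma on log2(normalized count + 1), which compared 2 libraries against 2. All 8 libraries were in 1 model with 1 estimate of the spread for each gene. Its p-values, SE and intervals therefore draw on all 4 groups, and the adjusted p-values that follow are of this kind. In unstimulated cells 4.73% of all genes tested were called, and 0 of 7 members, none of which had an unadjusted p under 0.05, as 22.0% of all genes did. Neither edgeR nor DESeq2 called a member there. In stimulated cells 0.272% of all genes were called and again 0 of 7 members by any of these tools, while 2 members, Trpv2 and Trpm4, had an unadjusted p under 0.05, against 13.7% of all genes. The question of whether the response to stimulation differed with genotype was tested as an interaction. It called 0.0% of all genes in limma, 0 genes in edgeR and 47 in DESeq2, and 0 of 7 members with each tool. In limma 0 of 7 members and 8.15% of all genes had an unadjusted p under 0.05. With both states averaged, a contrast added after seeing the data, limma and edgeR called 0 of 7 members and DESeq2 called 1, Trpv2. Of all genes, 8.33% were called in limma and 11.0% in DESeq2. In that contrast 2 of 7 members had an unadjusted p under 0.05 in limma, against 24.7% of all genes. By position alone, in unstimulated cells P2rx4 and P2rx7 lay above WT without overlap, as 26.5% of all genes did, and Trpv2 lay below (27.1%). In stimulated cells Kcnn4 and P2rx7 lay above (24.3%) and Trpm4 and Trpv2 below (23.1%).

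**Figure D2:**
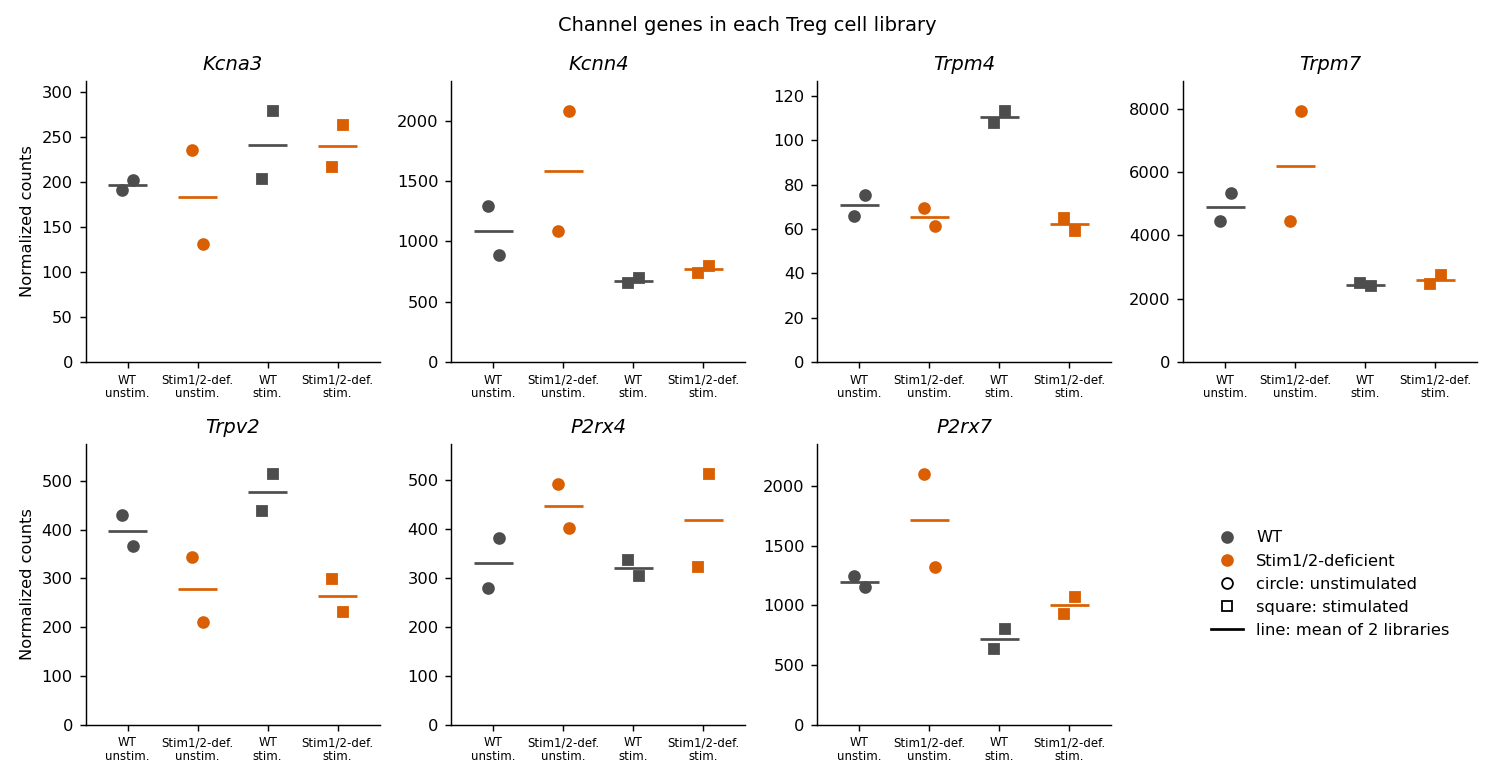
Normalized counts of each of the 7 channel genes in each of the 8 libraries (points), with the mean of the 2 libraries of a group (line); each panel has its own linear axis from 0. Trpm7, Kcnn4 and P2rx7 lie lower in every stimulated library than in every unstimulated library, and Trpv2 lies lower in both labelled groups than in the WT groups beside them.

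The other question was what stimulation changed. Trpm7 and P2rx7 were called lower in WT cells, against 13.1% of all genes called lower, and Trpm7, Kcnn4 and P2rx7 in labelled cells, against 12.0%. No member was called higher in limma, edgeR or DESeq2, whereas 10.2% of all genes were in WT and 13.0% in labelled cells in limma. Of all genes, 23.3% and 25.0% were called in either direction, and 37.5% and 38.9% had an unadjusted p under 0.05, as did 3 of 7 members in each genotype. Trpm7 and P2rx7 were thus called lower in both genotypes, as were 7.58% of all genes. Without overlap, Kcnn4, Trpm7 and P2rx7 lay below the unstimulated libraries in WT cells (36.0% of all genes) and in labelled cells (30.6%), and Kcna3, Trpm4 and Trpv2 lay above them in WT cells (35.0%), with 0 of 7 members above in labelled cells (30.8%). These counts depend on how the libraries are scaled: with equal totals the median log2 fold change of all genes shifted by 0.51 in WT and 0.38 in labelled cells, and then 0 members were called lower and 1, Trpm4, higher in WT cells, and 1, Trpm7, lower in labelled cells. Of 15419 genes, 4258 were called higher and 974 lower in WT cells with equal totals, and 3791 and 1077 in labelled cells. Over all genes, 56.0% of the stimulation calls in WT cells were falls, but 18.6% with equal totals, and 48.2% against 22.1% in labelled cells. Relative to the median of all genes, the difference of Trpm7 in WT cells with equal totals was -0.99, that of P2rx7 -0.74 and that of Kcnn4 -0.67, and in labelled cells they were -1.16, -0.70 and -0.93.

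**Figure D3:**
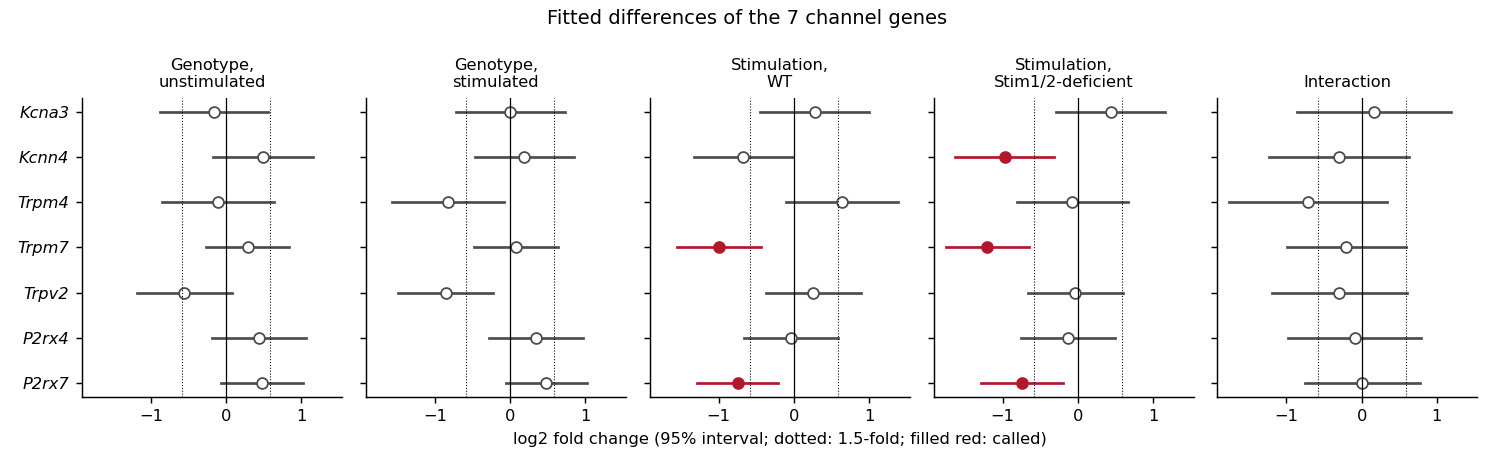
Log2 fold change of each of the 7 genes with its 95% interval, from 1 limma model of all 8 libraries, 2 in each group. Panels show genotype in unstimulated and stimulated cells, stimulation in WT and labelled cells, and the interaction. Dotted lines mark 1.5-fold and filled red points are called. Filled points are found in the stimulation panels alone, for Trpm7 and P2rx7 in WT cells and for Trpm7, Kcnn4 and P2rx7 in labelled cells.

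Kcnn4, the calcium-activated potassium channel, had 1291 and 888 normalized counts in WT unstimulated libraries, 1088 and 2079 in labelled unstimulated ones, 652 and 692 in WT stimulated ones and 735 and 799 in labelled stimulated ones. The unstimulated groups overlapped, labelled replicate 2 stood apart from the others, and every stimulated library was below every unstimulated one. In labelled cells Kcnn4 was lower after stimulation by 0.97 on the log2 scale (-0.97, SE 0.30, adjusted p = 0.0373). Without labelled unstimulated replicate 2 this was -0.51 (adjusted p = 0.178) and without replicate 1 it was -1.44 (adjusted p = 0.00279). Without stimulated replicate 1 or 2 the adjusted p was 0.123 or 0.093. In WT cells the log2 fold change with stimulation was -0.67 (95% interval -1.33 to -0.010, adjusted p = 0.128), which did not pass, though a fit to the 4 WT libraries alone did (adjusted p = 0.0225). The genotype difference was 0.49 in unstimulated cells (95% interval -0.17 to 1.15, adjusted p = 0.370) 0.02 without labelled replicate 2 and 0.96 without labelled replicate 1 (adjusted p = 0.0539). In stimulated cells the labelled pair lay above the WT pair, with a log2 fold change of 0.19 (adjusted p = 0.836).

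Kcna3, the voltage-gated channel, had 191 and 202 normalized counts in WT unstimulated libraries, 236 and 131 in labelled unstimulated ones, 203 and 279 in WT stimulated ones and 217 and 263 in labelled stimulated ones. The genotypes overlapped in both states, and labelled unstimulated replicate 2 had the lowest count of all 8 libraries. Its genotype log2 fold change was -0.16 in unstimulated cells (95% interval -0.89 to 0.56, adjusted p = 0.821) and after stimulation 0.01 (adjusted p = 0.999). With stimulation both WT libraries stood above both unstimulated ones by a log2 fold change of 0.27, and labelled cells had a log2 fold change of 0.44, neither passing the test. With a library left out these ran from 0.05 (without stimulated replicate 2) to 0.50 (without stimulated replicate 1) in WT cells and from 0.02 (without unstimulated replicate 2) to 0.86 (without unstimulated replicate 1) in labelled cells. With equal totals they were 0.79 and 0.83 (adjusted p = 0.0958 and 0.0876).

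Trpm7, the channel with a kinase domain, had the largest stimulation difference of the 7 in both genotypes on the deposited scale, though not with equal totals, where it was -0.48 in WT cells beside 1.15 for Trpm4 and -0.81 in labelled cells beside 0.83 for Kcna3. It had 4456 and 5347 normalized counts in WT unstimulated libraries and 4462 and 7929 in labelled unstimulated ones, against 2492 and 2392 in WT stimulated and 2449 and 2733 in labelled stimulated ones. The stimulated libraries were close to each other and all lay below the unstimulated ones. In WT cells the log2 fold change was -0.999 (SE 0.25, adjusted p = 0.0179), a 2.00-fold lower level. In labelled cells it was -1.20 (SE 0.25, adjusted p = 0.00755). The WT call was lost without any 1 of the 4 libraries, with log2 fold changes from -1.13 (without unstimulated replicate 3) to -0.87 (without unstimulated replicate 4) and adjusted p from 0.0693 to 0.140. The call in labelled cells passed without each of the 4, from -1.62 without unstimulated replicate 1 to -0.79 without unstimulated replicate 2. Genotypes overlapped in both states, with log2 fold changes of 0.29 in unstimulated cells (95% interval -0.27 to 0.84, adjusted p = 0.548) and after stimulation 0.08 (adjusted p = 0.925). Without labelled unstimulated replicate 1 the former was 0.70 and passed (adjusted p = 0.0459), and without replicate 2 it was -0.13. A transcript annotated on the opposite strand of Trpm7, Gm14212, had 15.2 to 100.7 normalized counts, and reads of the 2 cannot be told apart if strand was not used in counting.

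Trpv2, the calcium-permeable TRPV channel, was the member with the largest genotype difference in stimulated cells, also with each other scaling and tool. In unstimulated cells it ranked first on the deposited scale, but below Kcnn4 and P2rx7 with equal totals (-0.44 against 0.61 and 0.60), with equal upper quartiles and in edgeR and DESeq2. It had 430 and 366 normalized counts in WT unstimulated libraries against 344 and 211 in labelled ones, and 439 and 515 in WT stimulated libraries against 299 and 231 in labelled ones. The 4 labelled libraries all lay below the 4 WT libraries. The log2 fold change was -0.56 in unstimulated cells (95% interval -1.19 to 0.075, adjusted p = 0.282) and -0.85 in stimulated cells (95% interval -1.48 to -0.22, adjusted p = 0.204). Neither passed the adjusted threshold, and 11.8% of all genes likewise lay below WT without overlap in both states. Without labelled unstimulated replicate 2 the unstimulated difference was -0.21, and without replicate 1 it was -0.91. With stimulation the log2 fold change was 0.26 in WT cells and -0.04 in labelled cells, and with equal totals 0.78 (adjusted p = 0.0631) and 0.35. The interaction was -0.30 (SE 0.40, adjusted p = 0.862).

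Trpm4, the calcium-activated monovalent cation channel, had 65.8 and 75.3 normalized counts in WT unstimulated libraries, 69.2 and 61.4 in labelled unstimulated ones, 107.6 and 113.1 in WT stimulated ones and 65.1 and 59.1 in labelled stimulated ones. The 2 WT stimulated libraries stood above the other 6, which overlapped among groups. The genotype difference in stimulated cells was -0.82 on the log2 scale (95% interval -1.56 to -0.078, adjusted p = 0.305), and in unstimulated cells it was -0.11 (adjusted p = 0.887). The interaction was -0.71 (SE 0.47, adjusted p = 0.696). In WT cells the log2 fold change with stimulation was 0.64 (adjusted p = 0.190), and with equal totals it was 1.15 and passed. With equal totals 4258 of all 15419 genes were called higher in WT cells. Relative to the median of all genes, the Trpm4 difference in WT cells was 0.63 on the deposited scale and 0.64 with equal totals. In labelled cells it was -0.07, and 0.31 with equal totals. Trpm4 is a low-level transcript here, and a pseudogene on the other strand, Rpl14-ps1, overlaps it. Rpl14-ps1 had 24.1 to 47.5 normalized counts in unstimulated libraries, below every Trpm4 count. In stimulated libraries it had 62.4 to 79.4, within the range of Trpm4 over all libraries.

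P2rx7 had 1246 and 1152 normalized counts in WT unstimulated libraries, 2102 and 1324 in labelled unstimulated ones, 637 and 797 in WT stimulated ones and 926 and 1072 in labelled stimulated ones. Labelled libraries lay above WT libraries without overlap in both states, as for 9.59% of all genes, and stimulated libraries lay below unstimulated ones in both genotypes. The genotype log2 fold change was 0.48 in unstimulated cells (95% interval -0.064 to 1.02, adjusted p = 0.282) and 0.48 in stimulated cells (95% interval -0.057 to 1.02, adjusted p = 0.423), neither passing. Labelled unstimulated replicate 1, the library with the highest macrophage marker sum, also had the highest P2rx7 count. Without it the unstimulated difference was 0.14, and without replicate 2 it was 0.81 (adjusted p = 0.0457). In stimulated cells, where the difference was 0.48, the macrophage marker sum was 277 and 229 in WT and 346 and 306 in labelled libraries, and the part of macrophage transcripts in either difference was not tested. With stimulation P2rx7 was lower by a log2 fold change of -0.75 in WT cells (SE 0.24, adjusted p = 0.0488) and -0.74 in labelled cells (SE 0.24, adjusted p = 0.0478). Both calls lay close to the threshold. The WT call was lost without any 1 of its 4 libraries, with log2 fold changes from -0.91 (without stimulated replicate 2) to -0.59 (without stimulated replicate 1). In labelled cells the difference was -0.41 without unstimulated replicate 1, -1.08 without unstimulated replicate 2 (adjusted p = 0.00870) and -0.64 and -0.85 without stimulated replicates 1 and 2, and of these 4 fits the one without unstimulated replicate 2 passed.

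P2rx4, the other ATP-gated channel, had 281 and 383 normalized counts in WT unstimulated libraries, 493 and 402 in labelled unstimulated ones, 336 and 304 in WT stimulated ones and 322 and 513 in labelled stimulated ones. Labelled libraries lay above WT libraries in unstimulated cells, and the groups overlapped in stimulated cells and between states. Its genotype log2 fold change was 0.44 in unstimulated cells (95% interval -0.19 to 1.07, adjusted p = 0.398), which was 0.29 without labelled replicate 1, and after stimulation 0.35 (adjusted p = 0.647), which was 0.01 without labelled replicate 2. The stimulation difference was -0.04 in WT and -0.13 in labelled cells, and 0.48 and 0.26 with equal totals.

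The channels belong to larger families, and 173 genes of these families and of their partners were listed by symbol, of which 85 were tested. Beside the members, 7 of the 85 were called with genotype in unstimulated cells, against 4.73% of all genes, 3 higher and 4 lower, and DESeq2 called 16, against 8.57%. In stimulated cells limma and edgeR called 0 of the 85 and DESeq2 called 4, against 0.272% of all genes in limma and 3.40% in DESeq2, while 16 had an unadjusted p under 0.05 in limma, against 13.7%. The median log2 fold change of the 85 was 0.02 in unstimulated and -0.04 in stimulated cells, beside -0.01 and 0.02 over all genes. Of the regulators, Calm3, 1 of the calmodulin genes, had 824 and 588 normalized counts in WT unstimulated libraries and 341 and 283 in labelled ones (log2 fold change -1.16, SE 0.23, adjusted p = 0.0246). Clic1, a chloride intracellular channel gene, had 1543 and 1233 against 716 and 755 (log2 fold change -0.91, adjusted p = 0.0276). After stimulation both genes were close between the genotypes, with 588 to 635 counts of Calm3 in WT and 543 to 565 in labelled libraries and 1351 to 1472 counts of Clic1 against 1430 to 1456. Nt5e, which encodes CD73, the ectoenzyme that makes adenosine from AMP, had 3793 and 4008 normalized counts against 1960 and 2373 (log2 fold change -0.85, adjusted p = 0.0264), and in stimulated cells 3799 and 4178 against 2535 and 2800. Kcnj15, an inward rectifier, had 98.2 and 66.5 against 23.1 and 13.4 (log2 fold change -2.14, SE 0.37, adjusted p = 0.0160). Each of these 4 calls was lost when WT unstimulated replicate 3 or 4 was left out, with log2 fold changes of -0.92 and -1.41 for Calm3, -0.75 and -1.07 for Clic1, -0.89 and -0.81 for Nt5e and -1.85 and -2.42 for Kcnj15.

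The 3 family genes called higher in unstimulated labelled cells were highest in the library with the most macrophage transcripts. Kcnj10, another inward rectifier, had 3.24 and 4.43 normalized counts in WT libraries, which is 3 reads each, and 396 in labelled replicate 1 and 61.4 in replicate 2 (adjusted p = 0.0291). P2ry13, an ADP receptor, had 0 and 1.48 against 120 and 24.0 (adjusted p = 0.0333). Trpm2, a channel opened by ADP-ribose, had 1.08 and 7.39 against 307 and 33.4 (adjusted p = 0.0490). Their counts in the 4 stimulated libraries were 1.56 to 27.0 for Kcnj10, 2.38 to 18.98 for P2ry13 and 0 to 20.3 for Trpm2. All 3 calls were lost without labelled replicate 1 (adjusted p = 0.114, 0.120 and 0.198) and also without either WT library, and the part of macrophage transcripts in them was not tested.

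**Figure D4:**
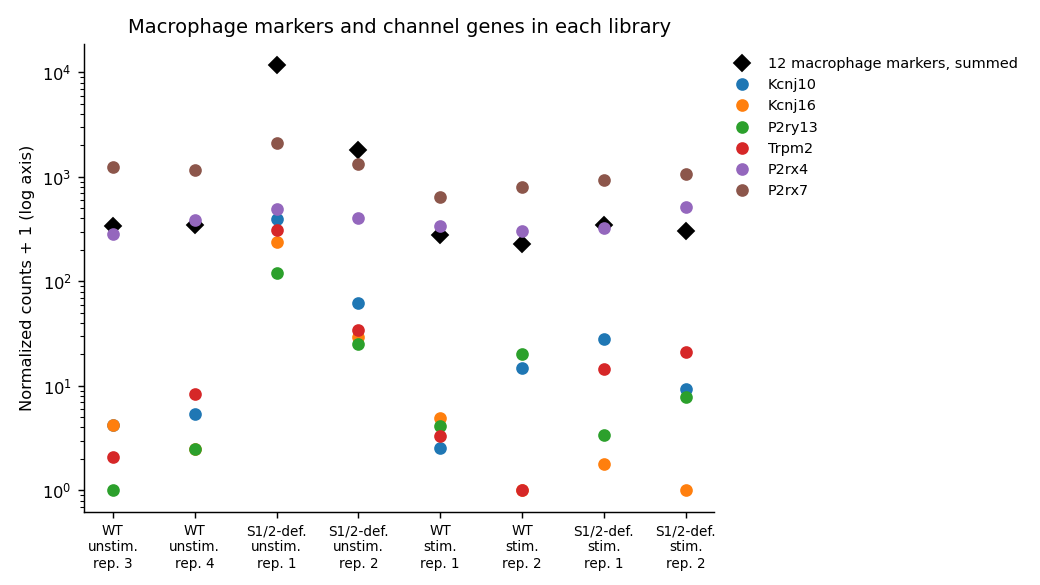
Normalized counts plus 1, on a log axis, of the summed 12 macrophage markers (diamonds) and of 6 channel and receptor genes (circles) in each library. The marker sum and Kcnj10, Kcnj16, Trpm2 and P2ry13 are highest in labelled unstimulated replicate 1 and second highest in replicate 2, whereas P2rx4 and P2rx7 vary over a far smaller range.

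With stimulation more of the family changed, as did more of all genes. Of the 85 tested, 9 were called higher and 13 lower in WT cells, 25.9% in all against 23.3% of all genes, and 12 higher and 17 lower in labelled cells, 34.1% against 25.0%. With equal totals the counts became 21 higher and 7 lower in WT and 20 higher and 7 lower in labelled cells, so the direction of the balance depended on the scaling. By group, the potassium channel family (26 tested) had 4 called higher and 5 lower in WT and 3 higher and 8 lower in labelled cells, the monovalent ion pumps and transporters (8 tested) had 1 higher and 3 lower in WT and 1 higher and 5 lower in labelled cells, and the channel regulators (9 tested) 3 and 2 and then 4 and 1. The TRP family (10 tested) had 0 calls in limma in both genotypes, with 0 and 1 genes at an unadjusted p under 0.05 in WT and labelled cells, and edgeR and DESeq2 called 0 in WT and 1 lower in labelled cells. The purinergic receptors (6 tested) had 0 in WT with each of the 3 tools (1 at an unadjusted p under 0.05 in limma) and 1 lower in labelled cells. Anion and volume channels (9 tested) had 2 lower in WT and 2 higher in labelled cells, magnesium transporters (9 tested) had 1 higher and 1 lower in WT and 2 higher and 1 lower in labelled cells, and nucleotide and NAD enzymes (8 tested) had 0 in WT with each tool (1 at an unadjusted p under 0.05 in limma) and 1 lower in labelled cells.

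**Figure D5:**
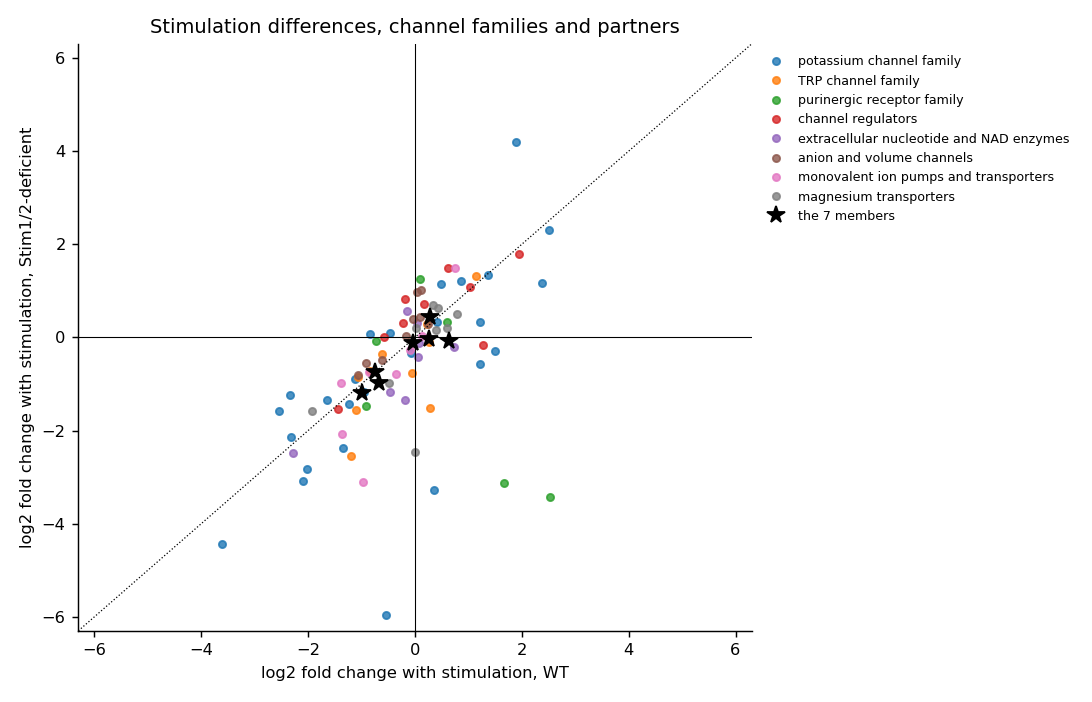
Log2 fold change with stimulation in WT cells (x axis) and in labelled cells (y axis) of the tested family and partner genes by group, with the 7 members as stars and a dotted line of equality. Trpm7, Kcnn4 and P2rx7 are the 3 stars in the lower left; fitted values of genes near 0 counts, such as Kcnj16 and Kcns1, depend on the pseudocount.

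Given here are the 3 largest called rises and the 3 largest called falls among these genes in each genotype, which beside Nme2 and P2ry13 were of potassium channel genes and their partner proteins. Kcnj15 rose from 98.2 and 66.5 to 260 and 355 normalized counts in WT cells (log2 fold change 1.90, adjusted p = 0.00643) and from 23.1 and 13.4 to 335 and 348 in labelled cells (log2 fold change 4.20, adjusted p = 2.29e-04), and its interaction was 2.31 on the log2 scale (SE 0.52, adjusted p = 0.506). Kcnip4, a channel-interacting protein, rose from 11.9 and 25.1 to 99.0 and 108.6 in WT (log2 fold change 2.51, adjusted p = 0.0129) and from 28.3 and 9.35 to 97.7 and 75.1 in labelled cells (log2 fold change 2.32, adjusted p = 0.0165). Kcnab1, a beta subunit of voltage-gated channels, rose from 17.3 and 29.5 to 196 and 74.4 in WT cells (log2 fold change 2.37, adjusted p = 0.00894). Nme2, a nucleoside diphosphate kinase whose histidine kinase activity is known to activate KCa3.1, rose from 18.4 and 14.8 to 63.9 and 69.1 in WT (log2 fold change 1.95, adjusted p = 0.0160) and from 19.9 and 12.02 to 54.0 and 57.4 in labelled cells (log2 fold change 1.78, adjusted p = 0.0215). Its paralogue Nme1 is close in sequence, so its count is uncertain. Kcnmb4, a beta subunit of the large-conductance potassium channel, fell from 218 and 233 to 46.8 and 30.4 in WT (log2 fold change -2.55, adjusted p = 0.00289) and from 188 and 397 to 76.2 and 108.1 in labelled cells (log2 fold change -1.58, adjusted p = 0.0191). Kcnh2, a voltage-gated channel gene, fell from 64.8 and 94.5 to 21.8 and 9.87 in WT cells (log2 fold change -2.33, adjusted p = 0.00843). Kcns1, a silent subunit, went from 28.1 and 22.2 to 1.56 and 0.76 in WT and from 14.7 and 54.8 to 0 and 0.84 in labelled cells (adjusted p = 0.0204 and 0.00804), with at most 2 reads in a stimulated library. Kcnj16 went from 239 and 28.1 to 0.79 and 0 in labelled cells (adjusted p = 0.00809) and P2ry13 from 120 and 24.0 to 2.38 and 6.75 (adjusted p = 0.0470), 2 genes that were near 0 in unstimulated WT cells and highest in the library with the most macrophage transcripts.

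Not all of these calls passed without each library. In WT cells the calls of Nme2 and Kcns1 were lost without any 1 of the 4 libraries, that of Kcnip4 without all but unstimulated replicate 4, that of Kcnab1 without unstimulated replicate 3 (2.00) or stimulated replicate 1 (1.68), and those of Kcnh2 (-2.06 and -1.80) and Kcnj15 (1.62 and 1.67) without unstimulated replicate 4 or stimulated replicate 2. In labelled cells Nme2 was lost without unstimulated replicate 2 (1.44) or either stimulated library, Kcnip4 (1.56 and 2.13) and Kcnmb4 (-1.04 and -1.33) without unstimulated replicate 2 or stimulated replicate 1, Kcns1 without unstimulated replicate 2 and P2ry13 without unstimulated replicate 1 or either stimulated library. Kcnmb4 in WT cells and Kcnj15 and Kcnj16 in labelled cells passed without each library of their groups.

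Genes whose pattern over the 8 libraries was most like that of a member were found by Pearson's r of log2 values, as a description. The points share depth, lane and cell makeup. Arid4b (r = 0.997), Rnf145 (0.996) and Gm44956 (0.995) were nearest to Trpm7, and Def6 (0.994), Ppp1r12c (0.982) and Msl2 (0.969) to Kcnn4. P2rx7 was nearest to Klhdc1 (0.988), Phf1 (0.983) and Samd9l (0.978), and Trpv2 to 4933404O12Rik (0.983), Cd200r1 (0.982) and Ptprj (0.981). For P2rx4 they were Gm10130 (0.973), Myo9a (0.949) and C330011M18Rik (0.947), for Trpm4 2810039B14Rik (0.967), 9530086O07Rik (0.966) and Tmem107 (0.956), and for Kcna3 Klhl2 (0.959), 6030443J06Rik (0.948) and Cog7 (0.947).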

How the data were processed

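RNA sequencing of Treg cells gave 8 libraries in 4 groups. The authors deposited signal values, called normalized counts in the text: the reads of each gene over a size factor of the library. Whole reads could be recovered for 99.998% to 100% of a library's values (tolerance 0.005 normalized counts). The study's methods name Bowtie, NCBIM37, HTSeq counting after removal of PCR duplicates and a TruSeq kit that does not mark strand, whereas the submitters' processing notes name STAR 2.7, mm10, bcl2fastq 1.8.4 and DESeq2 and the labels a stranded kit. The contradiction could not be settled, and the annotation version and the use of strand in counting are not given in the sources used here. Of 52459 symbols, 54.9% are in GENCODE M1 of NCBIM37, which gave exon lengths, and 66.9% in RefSeq of GRCm38.p6, which gave positions and promoters.

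limma 3.58.1 (lmFit, trended eBayes; R 4.3.3) was run on log2(value + 1) with a mean for each group. Genes averaging under 10 were left out, and p was adjusted by Benjamini-Hochberg over the 15419 others, per contrast. Tests were 2-sided. Calls needed over 1.5-fold and an adjusted p under 0.05. Fold changes are on the log2(value + 1) scale, which understates those of low genes. With counts of 3 reads or fewer in both libraries of a group, no fold is given. Standard errors and intervals use 1 estimate of the spread per gene, shared by the 4 groups of 2 libraries each. The members and lists were chosen with earlier results of these data known. Named beside the members were the 3 genes nearest to each in pattern, family genes called with genotype, and the 3 largest rises and falls called in each stimulation contrast. The contrast averaged over both states was added after seeing the data. Alternatives were pseudocounts of 0.1 and 5, every gene above 0, equal totals, equal upper quartiles, edgeR 4.0.16 and DESeq2 1.42.0 on recovered reads, adjusted p alone, fits to the 4 libraries compared, a replicate term and each library left out. The fits were tested on simulated data. The replicate numbers were not taken as pairs. The study's methods do not say whether YFPcre- and YFPcre+ libraries of the same number came from the same mice. If they did, the main test did not use that pairing.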

Additional observations from a re-analysis of the deposited data

How the results depend on the processing

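The number of members called with genotype in stimulated cells and in the interaction was 0 under all alternatives run, and with genotype in unstimulated cells 0 to 1 with a library left out. With stimulation in WT cells it was 1 with a pseudocount of 0.1, every gene above 0, equal totals, equal upper quartiles and both edgeR fits, 3 in the 4 libraries alone, where Kcnn4 passed (-0.67, adjusted p = 0.0225), and 0 with any library left out. In labelled cells it was 1 with every gene above 0, equal totals and the 4 libraries alone, 2 with a pseudocount of 0.1, where P2rx7 missed the threshold (adjusted p = 0.0528), and 1 to 2 with a library left out. A replicate block, tried where groups share replicate numbers, gave 0 members in stimulated cells and 2 with stimulation in labelled cells, where P2rx7 missed the threshold (adjusted p = 0.060); with 2 pairs the numbers were not taken as pairs (correlation of deviations 0.17 and 0.26). Of 15419 genes, equal totals called 4258 higher and 974 lower with stimulation in WT cells, and 3791 and 1077 in labelled cells. Equal upper quartiles called 1796 and 1837, and 1715 and 2149. For the pseudocounts, every gene above 0, edgeR, the fits to 4 libraries, the replicate block and left-out libraries, the share of all genes is not given here. The member counts cannot be set against it there. Equal totals shifted the median of all genes by 0.12 and equal upper quartiles by 0.16 for genotype in unstimulated cells, where 70.8% of all calls were falls, 59.4% and 53.7% under these scalings. The differences that changed direction were not called. With equal totals they were Trpm4 in unstimulated cells (0.0092), Kcna3 in stimulated cells (-0.0044), P2rx7 in the interaction (-0.12), P2rx4 with stimulation in WT (0.48) and Trpm4 (0.31), Trpv2 (0.35) and P2rx4 (0.26) in labelled cells. With equal upper quartiles they were Kcna3 (0.0012), Trpm4 (0.051) and Stim2 (0.017) in unstimulated cells, P2rx7 in the interaction (-0.15), P2rx4 with stimulation in WT (0.030) and Kcna3 averaged over states (0.0078). Kcna3 in stimulated cells was -0.014 in edgeR with TMM, -0.0048 in edgeR with size factors of DESeq2 and -0.0049 in DESeq2, and the P2rx7 interaction -0.056, -0.050 and -0.050. With a library left out the ranges for genotype in unstimulated cells were -0.58 to 0.26 (Kcna3) and -0.13 to 0.70 (Trpm7), and in stimulated cells -0.22 to 0.23 (Kcna3). For the interaction they were -0.26 to 0.59 (Kcna3), -0.77 to 0.17 (Kcnn4), -0.62 to 0.21 (Trpm7), -0.65 to 0.055 (Trpv2), -0.43 to 0.24 (P2rx4) and -0.33 to 0.34 (P2rx7). With stimulation they were -0.26 to 0.19 (P2rx4, WT), -0.16 to 0.014 (Trpm4), -0.39 to 0.32 (Trpv2) and -0.46 to 0.21 (P2rx4) in labelled cells, and averaged over states -0.29 to 0.13 (Kcna3) and -0.023 to 0.39 (Trpm7). The cause was not tested. With 2 libraries a group, small differences cannot be resolved.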

Other observations

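A genotype difference averaged over both stimulation states, a contrast chosen after seeing the data, used all 8 libraries. It called 0 of 7 members in limma, against 8.33% of all genes. In limma 2 of 7 members had an unadjusted p under 0.05, against 24.7% of all genes. The edgeR fits called 0. DESeq2 called 1, Trpv2 (log2 fold change -0.67, adjusted p = 0.0305), against 11.0% of all genes in DESeq2. In limma Trpv2 was -0.70 on the log2 scale (adjusted p = 0.0577). It was lower in 4 of 4 labelled libraries than in the WT libraries of the same state, as were 11.8% of all genes. P2rx7 was 0.48 (adjusted p = 0.116), higher in 4 of 4, as were 9.59% of all genes. With a library left out, Trpv2 ran from -0.88 (without labelled unstimulated replicate 1) to -0.53 (without labelled unstimulated replicate 2). P2rx7 ran from 0.31 (without labelled unstimulated replicate 1) to 0.65 (without labelled unstimulated replicate 2).

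The same contrast called 12 of the 85 family and partner genes in limma, against 8.33% of all genes, 4 higher and 8 lower, but 4 higher and 4 lower with equal totals and with equal upper quartiles. Among those not called within a single state, Trpc1, a TRP channel gene, had 86.3 and 91.6 normalized counts in WT and 10.5 and 2.67 in labelled unstimulated libraries, and 49.9 and 35.7 against 11.9 and 0 after stimulation (log2 fold change -3.69, SE 0.75, adjusted p = 0.0164). Kcnk1, a 2-pore potassium channel gene, had 52.9 and 45.8 against 6.29 and 2.67, and 18.7 and 12.2 against 3.18 and 0 (log2 fold change -3.13, adjusted p = 0.0150). Kcnk6 (log2 fold change -1.72, adjusted p = 0.0279) is of the same family. Atp1b1, a subunit of the sodium-potassium pump, had 554 and 582 against 887 and 1295, and 187 and 253 against 411 and 712 (log2 fold change 1.11, adjusted p = 0.0132). Entpd1, which encodes CD39, the ectoenzyme that degrades extracellular ATP, had 623 and 511 against 603 and 244, and 835 and 1039 against 326 and 341 (log2 fold change -1.02, adjusted p = 0.0354). On the log2 scale the magnesium transporter gene Slc41a1 differed by -0.62 (adjusted p = 0.0194) and Kcnip2 by 1.18 (adjusted p = 0.0308). Calls were lost without at least 1 library for each of these 7 genes, in 3 of 8 such fits for Atp1b1, 4 for Trpc1 and Kcnk1, 5 for Slc41a1 and 6 for Entpd1, Kcnip2 and Kcnk6.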
